A study of Arabidopsis thaliana with 24 samples.

Results

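Purple acid phosphatases and T2 ribonucleases were followed in Arabidopsis thaliana roots for 24 h after phosphate (Pi) was withdrawn. The genes were chosen by locus: 7 purple acid phosphatases (PAP10, PAP12, PAP14, PAP15, PAP22, PAP23 and PAP26) and the 2 ribonucleases RNS1 and RNS2. A gene was followed where a probe set of the array named its locus alone, which held for 4 of the 9: PAP22 (AT3G52820, chromosome 3), PAP23 (AT4G13700, chromosome 4), PAP26 (AT5G34850, chromosome 5) and RNS2 (AT2G39780, chromosome 2). Each had 1 probe set. PAP10, PAP12, PAP14, PAP15 and RNS1 were not analysed here. In all, 16928 loci had such a probe set.

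Purple acid phosphatases are metal-containing enzymes that split Pi from phosphate esters at acid pH, and many of them are secreted into the cell wall or the rhizosphere or kept in the vacuole. PAP26 is a major acid phosphatase of the Arabidopsis vacuole that is also secreted when Pi is short. T2 ribonucleases cut RNA, a large store of organic Pi. RNS2 works in the vacuolar system, where ribosomal RNA is broken down, and is known from studies of Pi starvation and senescence.

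The study asked how root transcripts respond in the first day without Pi. The minus Pi arm and the plus Pi arm were each sampled at 0, 1, 6 and 24 h, which gave 8 groups of 3 arrays and 24 one-colour Affymetrix arrays in all. Plants were 30 days old, had grown in aerated nutrient solution with 1.5 mM Pi, had their roots rinsed in EDTA, and were moved to solution with 0 mM Pi (minus Pi) or 1.5 mM Pi (plus Pi) early in the light period. Roots of several plants were pooled for each array, and the labels number the 3 runs of the whole experiment as 1 to 3. The labels name neither an accession nor a mutant line or transgene, and both arms went through the same rinse and transfer, also at 0 h.

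Values are log2 signals as the authors deposited them, in which 1 unit is a doubling. They show how 1 probe set varied between arrays and not how 1 gene compares with another. The Pi effect is the mean of the 3 minus Pi arrays less the mean of the 3 plus Pi arrays at one time. Tests used limma over 22746 probe sets with a Benjamini-Hochberg adjusted p, and a gene was called at an adjusted p under 0.05. P-values measure the spread between these pooled arrays, and an exact permutation test of 3 arrays against 3 could not give a p below 0.1. Because roots were sampled in bulk, fewer cells of a type and less RNA per cell cannot be told apart.

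The arrays had medians of 6.345 to 6.454, and replicates correlated with r between 0.95 and 0.992. SPX1, a Pi starvation gene that encodes a Pi-sensing regulator, was higher in minus Pi roots than in plus Pi roots by 1.63 ± 0.36 (SE) at 6 h (limma adjusted p = 0.0074) and by 3.17 ± 0.36 at 24 h (limma adjusted p = 0.000302). Of 11 root markers, 8 had a probe set. Their mean log2 signal per array at 24 h was 7.95 to 8.33 in minus Pi roots, against 8.37 to 8.92 with Pi supplied, and 7.92 to 8.92 over all arrays. In the same order it was 8.18 to 8.84 against 7.96 to 8.86 at 0 h and 7.96 to 8.22 against 8.19 to 8.72 at 1 h. At 6 h it was 7.92 to 8.22 in minus Pi roots, against 8.39 to 8.67 with Pi supplied. At 24 h, 0 of the 8 were called (0.321% of all probe sets were). With the experiment as a block 2 of the 8 were lower in minus Pi roots, against 2.29% of all probe sets, the root hair expansin EXPA7 (log2 -1.24) and the tonoplast aquaporin TIP2;3 (log2 -1.04). With the block 1 of the 8 was lower at 1 h, against 2.04% of all probe sets, and 3 were lower at 6 h, against 13.2%. Without the block 0 of the 8 were called at 1 h (1.13% of all probe sets) or at 6 h (9.65%). Of 10 leaf markers, 5 had a probe set, with a mean per array of 5.01 to 6.78 over all arrays. The part of root cell type shifts in the results below was not tested.

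**Figure D1:**
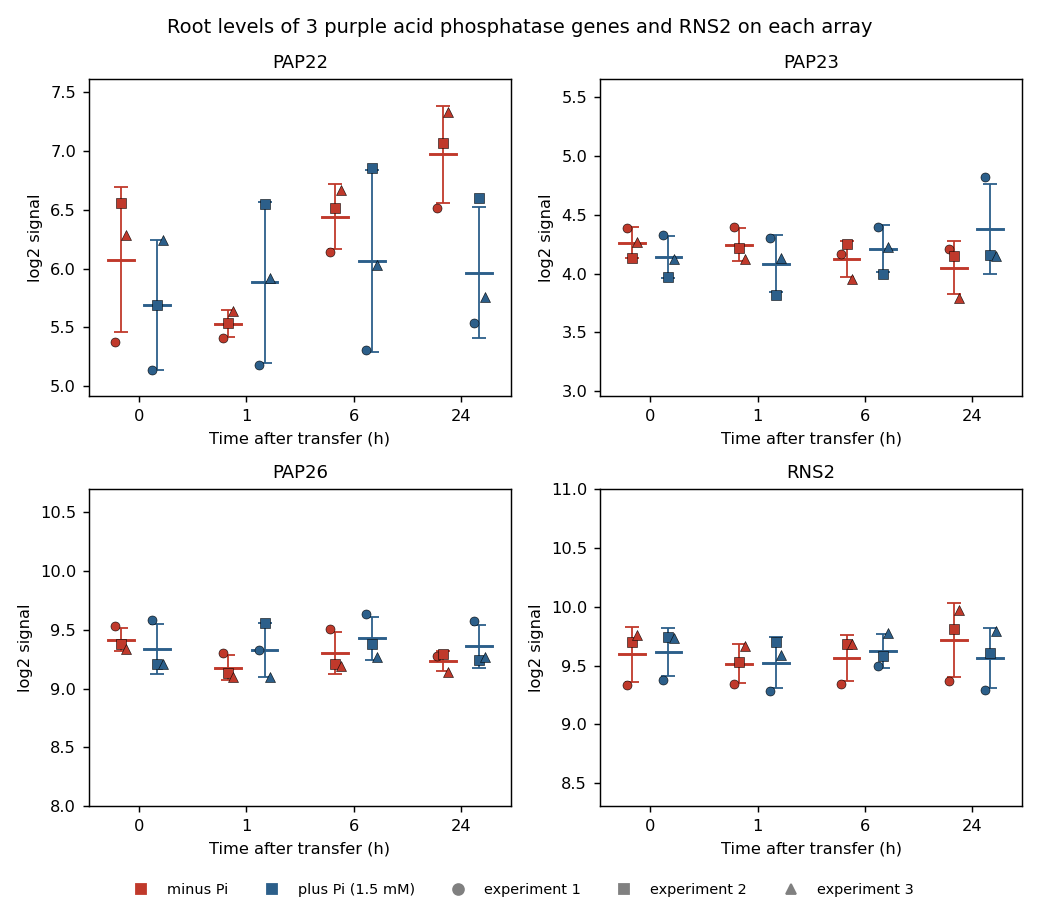
Log2 signal (y axis) of PAP22, PAP23, PAP26 and RNS2 on each array against time after transfer in h (x axis, evenly spaced), for minus Pi roots (red) and plus Pi roots (blue). Marker shapes are experiments 1 to 3 and bars are group means with SD (n = 3). PAP22 reaches 7.33 in minus Pi roots at 24 h, while RNS2 stays between 9.28 and 9.97 on all arrays.

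PAP22 was the gene of the 4 with the widest swings, between 5.14 and 7.33 over the 24 arrays. At 24 h it was on average 2.01-fold higher in minus Pi roots than in plus Pi roots, and higher in 3 of 3 experiments. This difference was called only with the experiment number as a fixed block in the fit. The other genes of the set, PAP23, PAP26 and RNS2, were called in none of the 15 comparisons, with or without the experiment as a block. Over all probe sets, the share called in these comparisons ran from 0% to 18.4% without the block and from 0% to 32.1% with it.

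At 24 h PAP22 had 6.52, 7.07 and 7.33 in the minus Pi roots of experiments 1, 2 and 3, against 5.54, 6.60 and 5.76 in plus Pi roots. Values of 3 arrays are given in this order of experiments throughout. The groups overlapped, since the lowest minus Pi array (experiment 1) lay just below the highest plus Pi array (experiment 2), but within each experiment the minus Pi array was the higher one. The Pi effect was a log2 difference of 1.01 ± 0.41 (SE, n = 3 each), with a 95% interval of 0.13 to 1.88, or 1.10-fold to 3.67-fold. Its unadjusted p was 0.0259 in the limma fit and its limma adjusted p was 0.449. With the experiment as a fixed block the limma adjusted p was 0.0302, and with the experiment as a random block it was 0.0504. Experiments 1, 2 and 3 gave differences of 0.98, 0.47 and 1.56.

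The call of PAP22 at 24 h with the fixed block did not hold in every fit with 1 array left out. It was kept without each of 19 of the 24 arrays and lost without each of the other 5. The limma adjusted p was 0.0807, 0.065 and 0.104 without the minus Pi 24 h array of experiments 1, 2 and 3. It was 0.082 and 0.132 without the plus Pi 24 h array of experiments 1 and 3. Without experiments 1, 2 and 3 as a whole it was 0.182, 0.05 and 0.292, none of them under the threshold, and the log2 difference itself was 1.02, 1.27 and 0.73.

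At the earlier times PAP22 gave no difference past the spread between experiments. At 0 h it had 5.38, 6.56 and 6.29 in minus Pi roots, against 5.14, 5.69 and 6.24 in plus Pi roots. At 1 h it had 5.41, 5.54 and 5.64 in minus Pi roots, against 5.18, 6.55 and 5.92 in plus Pi roots. At 6 h it had 6.14, 6.52 and 6.67 in minus Pi roots, against 5.31, 6.86 and 6.03 in plus Pi roots. The groups overlapped at all of these times, and the plus Pi arrays of experiment 2 were high at 1, 6 and 24 h. The Pi effect was 0.39 at 0 h (limma adjusted p = 1.00), -0.35 at 1 h (limma adjusted p = 0.909) and 0.38 at 6 h (limma adjusted p = 0.704), each with an SE of 0.41. At 6 h it was positive in experiments 1 and 3 (0.82 and 0.64) and negative in experiment 2 (-0.33), and without experiment 2 the blocked fit gave 0.73 with a limma adjusted p of 0.0485.

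Within the minus Pi arm, PAP22 was higher at 24 h than at 0 h in 3 of 3 experiments, by 1.13, 0.52 and 1.04. The mean was 6.97 ± 0.41 at 24 h and 6.08 ± 0.62 at 0 h (SD, n = 3 each), a log2 difference of 0.90 ± 0.41 (SE). The limma adjusted p was 0.329, and 0.0271 with the experiment as a fixed block and 0.0440 as a random block. The blocked call was lost without the minus Pi 24 h array of experiment 1 (limma adjusted p = 0.0804) or 3 (0.0952), and without the minus Pi 0 h array of experiment 1 (0.115), 2 (0.0604) or 3 (0.0551). It was also lost without all arrays of experiment 1 (0.229) or 3 (0.147). In plus Pi roots PAP22 averaged 5.97 ± 0.56 at 24 h and 5.69 ± 0.55 at 0 h, a log2 difference of 0.28 ± 0.41 (SE, limma adjusted p = 1.00), positive in experiments 1 and 2 and negative in experiment 3.

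Whether the Pi effect on PAP22 changed with time was tested as a difference between times. The Pi effect at 24 h exceeded that at 0 h by 0.62 ± 0.59 (SE), with a limma adjusted p of 0.918, and 0.391 with the block. It exceeded the effect at 6 h by 0.63 ± 0.59 (limma adjusted p = 0.880, and 0.372 with the block). The effect at 6 h exceeded that at 1 h by 0.73 ± 0.59 (limma adjusted p = 0.640, and 0.202 with the block), with a positive difference in 3 of 3 experiments. None of these passed, so a Pi effect on PAP22 particular to 24 h was not shown. PAP22 was highest on average in minus Pi roots at 24 h and lowest in minus Pi roots at 1 h, where it averaged 5.53 ± 0.12 (SD, n = 3). The other 6 groups had means between 5.69 and 6.44, and each differed from its neighbours in that range by less than the larger SD of the pair.

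**Figure D2:**
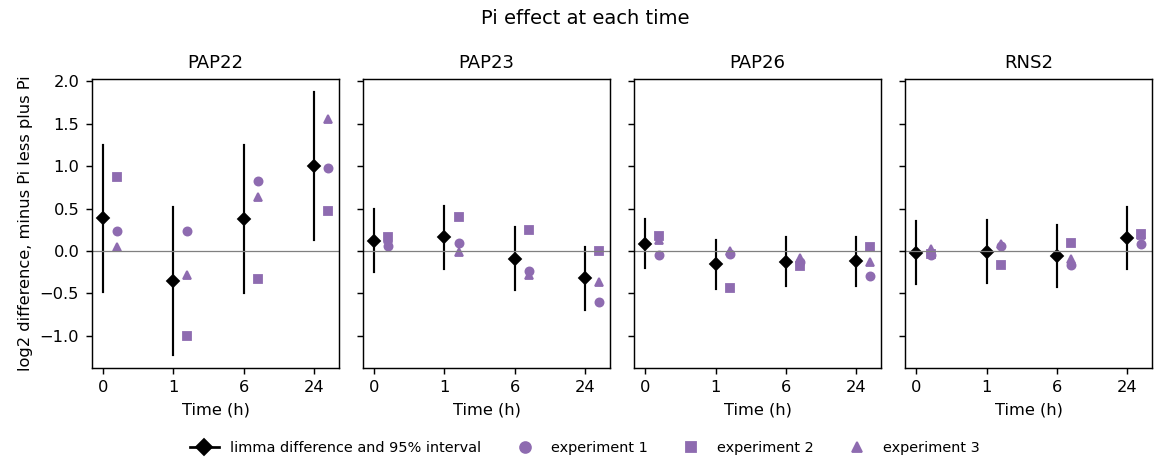
Pi effect (y axis, log2 difference, minus Pi less plus Pi) of the 4 genes at 0, 1, 6 and 24 h (x axis, evenly spaced). Diamonds with bars are limma differences with 95% intervals, and purple markers are the differences within experiments 1 to 3. The interval lies wholly above 0 only for PAP22 at 24 h (0.13 to 1.88), before adjustment over probe sets.

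PAP26 varied little. Its signal ranged from 9.10 to 9.63 over the 24 arrays, and its group means spanned 0.253. At 24 h it had 9.28, 9.29 and 9.14 in minus Pi roots, against 9.57, 9.24 and 9.27 in plus Pi roots. These groups overlapped, with experiment 1 of the plus Pi arm the highest. The Pi effect was 0.09 at 0 h, -0.16 at 1 h, -0.13 at 6 h and -0.12 at 24 h, each with an SE of 0.14. The smallest limma adjusted p among these was 0.702, at 6 h. The interval at 24 h, -0.41 to 0.17, corresponds to 0.752-fold to 1.12-fold.

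Within the minus Pi arm PAP26 had 9.30, 9.13 and 9.10 at 1 h, 9.51, 9.21 and 9.19 at 6 h and 9.28, 9.29 and 9.14 at 24 h, against 9.53, 9.38 and 9.34 at 0 h. The arrays at 1 h and at 24 h all lay below those at 0 h, while the arrays at 6 h overlapped with them. The difference from 0 h at 6 h was -0.12 ± 0.14 (SE, limma adjusted p = 0.662, and 0.390 with the block). At the other times it was -0.24 ± 0.14 at 1 h (limma adjusted p = 0.721, and 0.188 with the block) and -0.18 ± 0.14 at 24 h (limma adjusted p = 0.637, and 0.249 with the block). Of all probe sets, 5.87% lay lower without overlap at 1 h against 0 h and 8.96% at 24 h against 0 h, so PAP26 was one of many there. In plus Pi roots the differences of PAP26 from 0 h were 0.0017 at 1 h, 0.10 at 6 h and 0.03 at 24 h.

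PAP23 gave a low signal, with a mean of 4.19 over the arrays, under the 25th percentile of probe set means (4.65). At 24 h it had 4.21, 4.15 and 3.79 in minus Pi roots, against 4.82, 4.16 and 4.15 in plus Pi roots. The groups overlapped, and the plus Pi array of experiment 1 stood highest. The Pi effect at 24 h was -0.32 ± 0.18 (SE), with an interval of -0.69 to 0.05, a limma adjusted p of 0.647, and 0.164 with the block. Experiments 1, 2 and 3 gave differences of -0.61, -0.0046 and -0.36. At 0, 1 and 6 h the Pi effect was 0.12, 0.16 and -0.09, with limma adjusted p-values between 0.865 and 1.00.

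RNS2 differed between experiments far more than between groups. Its mean over the 8 arrays of an experiment was 9.36, 9.67 and 9.75 in experiments 1, 2 and 3, and 79.4% of its sum of squares lay between experiments, against 10.3% between groups. At 24 h it had 9.37, 9.81 and 9.97 in minus Pi roots, against 9.29, 9.61 and 9.79 in plus Pi roots. The groups overlapped, but in each experiment the minus Pi array was the higher one, by 0.08, 0.20 and 0.19. The Pi effect of 0.16 ± 0.18 (SE) had a limma adjusted p of 0.906, and 0.278 with the block. Its interval ran from 0.863-fold to 1.44-fold. At 0, 1 and 6 h the Pi effect was -0.02, -0.01 and -0.06, and its sign was not the same in the 3 experiments at any of these times.

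The share of the sum of squares between experiments was 35.3% for PAP22, 42.7% for PAP23 and 46.7% for PAP26. Only for PAP22 did the groups hold the largest share (48.1%, with 16.6% left over). PAP22 averaged 5.58 in experiment 1, 6.42 in experiment 2 and 6.24 in experiment 3, while PAP23 and PAP26 were highest in experiment 1.

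Counted over the 4 genes, 0 of 4 were called for the Pi effect at 0 h, where 0% of all probe sets were called (301, or 1.32%, had an unadjusted p under 0.05, and 920 with the experiment as a block). At 1 h 0 of 4 were called, against 1.13% of all probe sets, at 6 h 0 of 4 against 9.65%, and at 24 h 0 of 4 against 0.321%. With the experiment as a block the Pi effect at 24 h called 1 of 4, PAP22, against 4.01% of all probe sets. In the minus Pi arm, 0 of 4 were called at 1 h against 0 h (1.01% of all probe sets), at 6 h (18.4%) and at 24 h (2.77%), and with the block 1 of 4 at 24 h, again PAP22, against 10.5% (9.14% with the random block). In the plus Pi arm 0 of 4 were called at 1 h (0.356% of all probe sets), at 6 h (2.34%) and at 24 h (0.497%), each against 0 h. For the changes of the Pi effect between times, 0 of 4 were called for 1 h against 0 h (0.101% of all probe sets), 6 h against 0 h (1.87%), 24 h against 0 h (0.127%), 6 h against 1 h (1.47%) and 24 h against 6 h (0.259%). An unadjusted p under 0.05 was found for 1 of 4, PAP22, for the Pi effect at 24 h (8.82% of all probe sets) and for minus Pi roots at 24 h against 0 h (14.4%).

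With the experiment as a block, 0 of 4 were called in the other comparisons, while more probe sets were called over the array. For the Pi effect these backgrounds were 0% at 0 h, 3.97% at 1 h and 22.5% at 6 h. In the minus Pi arm they were 3.69% at 1 h and 32.1% at 6 h, and in the plus Pi arm 0.862% at 1 h, 6.31% at 6 h and 1.01% at 24 h. For the changes of the Pi effect they were 0.409% for 1 h against 0 h, 11.6% for 6 h against 0 h, 1.93% for 24 h against 0 h, 9.05% for 6 h against 1 h and 3.23% for 24 h against 6 h.

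The median Pi effect of the 4 genes was 0.10 at 0 h, -0.08 at 1 h, -0.07 at 6 h and 0.02 at 24 h. The median over all probe sets lay between -0.02 and -0.00275 at these times. At 24 h the 5th percentile of all probe sets was -0.44 and the 95th was 0.49. PAP22 at 24 h lay above that range, and PAP23, PAP26 and RNS2 lay inside it.

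Of 22 other purple acid phosphatase loci, 9 had a probe set naming them alone. At 24 h 1 of the 9 was higher in minus Pi roots than in plus Pi roots and 0 were lower, against 0.224% of all probe sets called higher. With the experiment as a block 3 of the 9 were higher and 0 lower, against 1.71% of all probe sets. The 3 were PAP20 (AT3G52780), AT1G13750, which has no symbol in the gene table used, and PAP29 (AT5G63140). The median of the 9 at 24 h was -0.07, against -0.00275 over all probe sets, and the other genes of the 9 were called in neither fit at that time.

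PAP20 was higher in minus Pi roots at 24 h. It had 4.85, 4.46 and 4.41 in minus Pi roots, against 4.13, 4.02 and 3.96 in plus Pi roots. The groups did not overlap, as for 6.62% of all probe sets in that direction. The Pi effect was 0.54 ± 0.10 (SE), or 1.45-fold, with a limma adjusted p of 0.0220, and 0.00105 with the block. Without the block the call was lost without the minus Pi 24 h array of experiment 1 (limma adjusted p = 0.0665) and without the plus Pi 24 h array of experiment 2 (0.114) or 3 (0.0906). It was also lost without experiment 1 (0.0856), 2 (0.732) or 3 (0.209) as a whole. With the block it was kept without each single array and without experiments 1 and 3, and lost without experiment 2 (0.0785). Its signal, like that of PAP23, lay under the 25th percentile of probe set means.

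AT1G13750 had 8.09, 7.85 and 7.78 in minus Pi roots at 24 h, against 7.42, 7.04 and 7.36 in plus Pi roots. PAP29 had 6.75, 7.61 and 7.03 in minus Pi roots, against 5.89, 6.61 and 6.56 in plus Pi roots. Neither gene's groups overlapped, as for 6.62% of all probe sets in that direction. The Pi effect on AT1G13750 was 0.63 ± 0.15 (SE, limma adjusted p = 0.0763, and 0.00924 with the block) and that on PAP29 was 0.78 ± 0.30 (limma adjusted p = 0.393, and 0.00212 with the block). The blocked call of AT1G13750 was lost without the minus Pi (0.0579) or plus Pi (0.0544) 24 h array of experiment 2, and without experiment 1 (0.113) or 2 (0.206). That of PAP29 was lost without experiment 2 (0.12).

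Among the purple acid phosphatases with a probe set naming them alone, PAP27 (AT5G50400) gave the second largest mean difference at 24 h after PAP22. The difference was 0.83 ± 0.29 (SE), but PAP27 was not called (limma adjusted p = 0.336, and 0.0834 with the block). The other loci of the family were not ranked. At 24 h it had 10.65, 11.43 and 11.51 in minus Pi roots, against 10.19, 10.70 and 10.20 in plus Pi roots, so only the minus Pi array of experiment 1 overlapped with the plus Pi arm. At 6 h it had 10.38, 10.83 and 11.02 in minus Pi roots, against 9.89, 9.96 and 9.99 in plus Pi roots, without overlap, as for 11% of all probe sets in that direction. The Pi effect at 6 h was 0.80 ± 0.29 (limma adjusted p = 0.101, and 0.0342 with the block). With the block PAP27 was thus the 1 gene of the 9 called at 6 h, against 9.34% of all probe sets called higher. That call was lost without the minus Pi 6 h array of experiment 1 (0.0563), 2 (0.0655) or 3 (0.121), without the plus Pi 6 h array of experiment 2 (0.127) or 3 (0.083), and without experiment 1 (0.0612) or 2 (0.253).

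**Figure D3:**
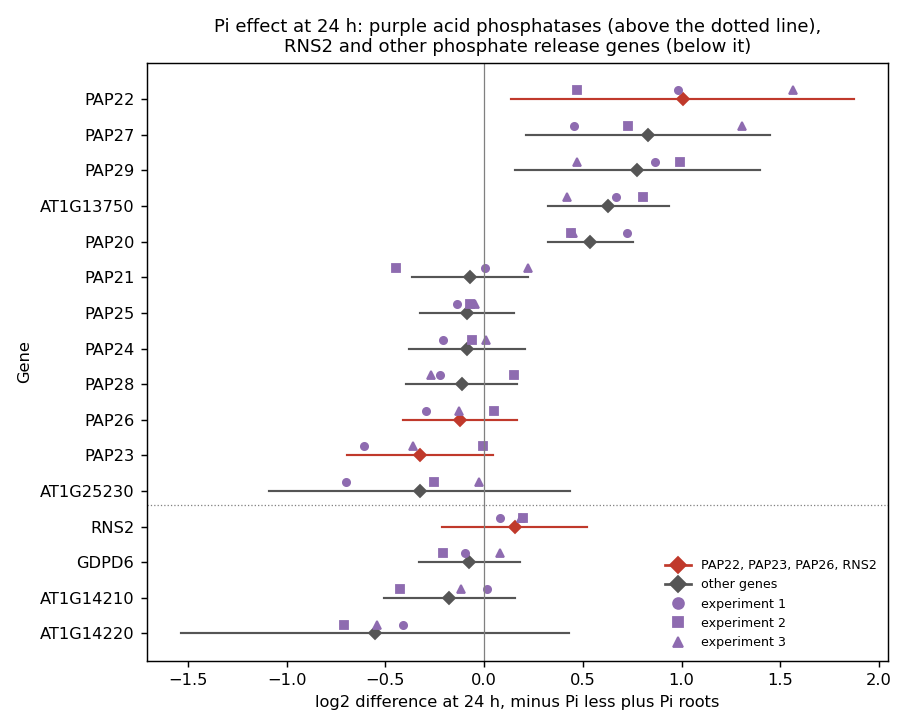
Pi effect at 24 h (x axis, log2 difference, minus Pi less plus Pi) of the purple acid phosphatases with a probe set (rows above the dotted line) and of RNS2 and other Pi release genes (rows below it). Diamonds with bars are limma differences with 95% intervals, red for PAP22, PAP23, PAP26 and RNS2 and grey for the others, and purple markers are the differences within experiments. PAP22, PAP27, PAP29, AT1G13750 and PAP20 have intervals above 0 before adjustment, and the other 7 purple acid phosphatases have intervals that span 0.

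Within the minus Pi arm at 24 h against 0 h, 2 of the 9 rose and 0 fell, against 1.02% of all probe sets called higher. PAP20 rose by 0.48 ± 0.10 (limma adjusted p = 0.0142) and AT1G13750 by 0.64 ± 0.15 (limma adjusted p = 0.0221). With the block PAP29 was the added gene (0.72 ± 0.12 in that fit, limma adjusted p = 0.00111), which made 3 of 9 against 4.87%. The call of PAP20 without the block was lost without the minus Pi array of experiment 1 at 0 h (0.0588) or 24 h (0.058). That of AT1G13750 was lost without the minus Pi 24 h array of experiment 1 (0.088) or 2 (0.065) and without the minus Pi 0 h array of experiment 2 (0.117) or 3 (0.064). Without experiments 1, 2 and 3 as a whole neither was called without the block, with limma adjusted p-values of 0.106, 0.335 and 0.0754 for PAP20 and 0.0824, 0.387 and 0.13 for AT1G13750. With the block PAP20 was called without each experiment, AT1G13750 was not called without experiment 1 (0.0502) or 2 (0.0851), and PAP29 was not called without experiment 2 (0.0747). In the plus Pi arm at 24 h against 0 h, 0 of the 9 were called in either fit. Of all probe sets 0.497% were called there, and 1.01% with the block. PAP20, AT1G13750 and PAP29 differed by 0.04, -0.12 and -0.14 in that comparison. The Pi effect at 24 h and the change within the minus Pi arm share the minus Pi 24 h arrays.

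With the block 2 further time effects were called among the 9. PAP29 was higher in minus Pi roots at 1 h than at 0 h by 0.47 ± 0.12 (SE in that fit, limma adjusted p = 0.0361, and 0.796 without the block), 1 of 9 against 1.63% of all probe sets. AT1G25230, which has no symbol in the gene table used, was higher in plus Pi roots at 6 h than at 0 h by 1.02 ± 0.24 (SE in that fit, limma adjusted p = 0.0146, and 0.208 without the block), 1 of 9 against 2.93%. In minus Pi roots AT1G25230 also averaged more at 6 h (8.73) than at 0 h (8.17), but was not called. Neither call was kept without any 1 of the experiments, with limma adjusted p-values of 0.0679, 0.387 and 0.218 for PAP29 and 0.0557, 0.135 and 0.118 for AT1G25230 without experiments 1, 2 and 3. Both calls were also lost in some fits with 1 array left out. PAP29 was not called without the minus Pi 1 h array of experiment 2 (0.169) or 3 (0.144) or the minus Pi 0 h array of experiment 1 (0.116), 2 (0.14) or 3 (0.0792). AT1G25230 was not called without the plus Pi 6 h array of experiment 2 (0.0867) or the plus Pi 0 h array of experiment 2 (0.0865) or 3 (0.0608).

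PAP20, PAP21 and PAP22 are neighbours on chromosome 3 in the gene order of the TAIR10.1 table: PAP21 and PAP22 have 0 genes between them, and PAP20 and PAP21 have 2. The middle gene did not share the higher values at 24 h. PAP21 had 4.18, 4.28 and 4.37 in minus Pi roots at 24 h, against 4.18, 4.73 and 4.15 in plus Pi roots, a Pi effect of -0.07 ± 0.14 (SE, limma adjusted p = 0.965). The 3 genes have 1 probe set each and PAP20 and PAP21 have low signals, and cross-hybridisation between close relatives was not tested.

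**Figure D4:**
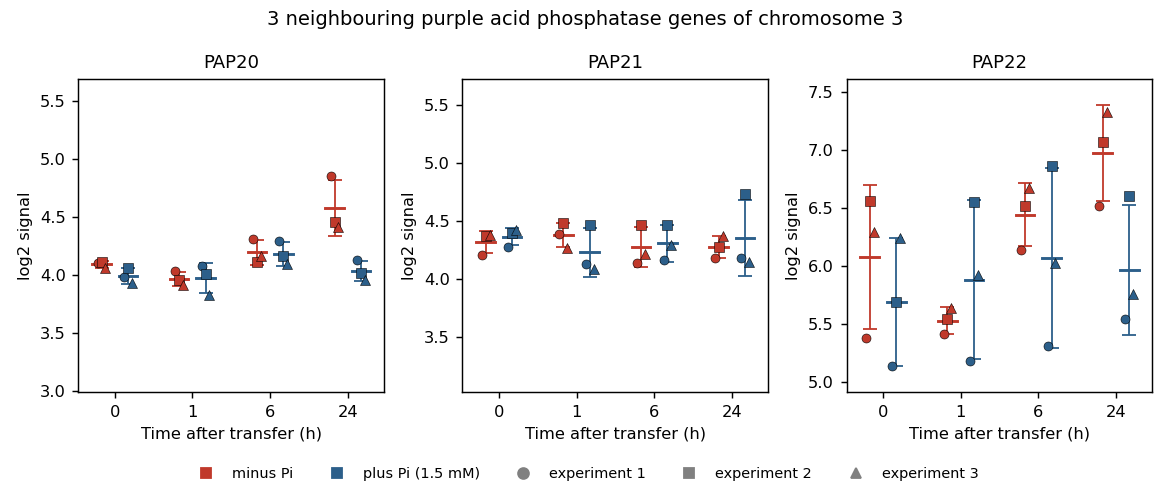
Log2 signal (y axis) of the neighbouring genes PAP20, PAP21 and PAP22 on each array against time after transfer in h (x axis, evenly spaced), for minus Pi roots (red) and plus Pi roots (blue). Marker shapes are experiments 1 to 3, and bars are group means with SD (n = 3). At 24 h PAP20 is separated between the arms, PAP22 overlaps slightly, and PAP21 averages 4.28 in minus Pi roots and 4.35 in plus Pi roots.

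Of 13 other loci for the release of organic Pi, among them nucleases, phospholipases and phosphodiesterases, 3 had a probe set naming them alone: AT1G14210 and AT1G14220, which are neighbours on chromosome 1 with 0 genes between them and were listed here as T2 ribonuclease relatives of RNS2, and the glycerophosphodiester phosphodiesterase GDPD6. AT1G14220 fell at 6 h in the minus Pi arm. It had 5.46, 5.63 and 4.62 in minus Pi roots at 6 h, against 7.73, 6.88 and 5.92 in minus Pi roots at 0 h. The groups did not overlap, as for 16.8% of all probe sets in that direction, and 9.85% were called lower. The log2 difference was -1.61 ± 0.47 (SE, limma adjusted p = 0.0217, and 0.000192 with the block). Without the block the call was lost without the minus Pi 0 h array of experiment 1 (0.141) or 2 (0.0656), the minus Pi 6 h array of experiment 3 (0.107), or experiment 2 (0.176) or 3 (0.0571), while with the block it was kept without each array and each experiment.

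The plus Pi arrays of AT1G14220 at 6 h were 6.91, 6.32 and 6.54, and the Pi effect at 6 h was -1.36 ± 0.47 (limma adjusted p = 0.0765, and 0.00145 with the block). With the block 2 of the 3 genes were lower at 6 h, against 13.2% of all probe sets, the other being AT1G14210 (-0.31, limma adjusted p = 0.260, and 0.0261 with the block). That call of AT1G14210 was lost without experiments 1 (0.191), 2 (0.173) and 3 (0.0525) and without the minus Pi 6 h array of experiment 1 (0.132) or 2 (0.0657) or the plus Pi 6 h array of experiment 2 (0.153). In the minus Pi arm at 6 h against 0 h, 2 of the 3 genes were lower with the block, against 16.9% of all probe sets. For AT1G14210 this difference was -0.26 (limma adjusted p = 0.286, and 0.0417 with the block), and the blocked call was lost without experiments 1 (0.282), 2 (0.152) and 3 (0.0658). It was also lost without the minus Pi 6 h array of experiment 1 (0.182) or 2 (0.0823), the minus Pi 0 h array of experiment 1 (0.0993) or 2 (0.165), or the plus Pi 1 h array of experiment 1 (0.0502) or 3 (0.0504). RNS2 had a Pi effect of -0.06 at that time. At 6 h 9.65% of all probe sets were called for the Pi effect without the block, the highest share of the 4 times. The leaf marker mean reached 6.78 on 1 plus Pi array, against a highest value of 5.73 in minus Pi roots at 6 h. Of the 5 leaf markers, 1 was called higher at 6 h than at 0 h in minus Pi roots (8.51% of all probe sets). In plus Pi roots 1 was too (0.879%). With the block 2 were higher in each arm (15.3% and 2.93%), and 1 was lower for the Pi effect at 6 h (13.2%). The part of leaf tissue in the 6 h values above was not tested.

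Across the 24 arrays, after each experiment's mean was taken off, the loci whose signal was most like that of PAP22 were AT1G08310 (r = 0.883), AT2G26800 (r = 0.830) and NYC1, a chlorophyll b reductase gene (r = 0.824). PAP20 had r = 0.797 and SPX1 r = 0.767 with PAP22, and over the 8 group means these were 0.946 and 0.885. PAP27 had r = 0.578, RNS2 0.396, PAP26 0.064 and PAP23 -0.404. For PAP23 the most alike were AT1G63190 (0.800), the alpha carbonic anhydrase gene ACA1 (0.786) and AT1G06990 (0.734), and for PAP26 they were AT3G16850 (0.800), the beta-hexosaminidase gene HEXO1 (0.767) and the rhomboid-like gene RBL15 (0.760). For RNS2 they were AT1G67450 (0.734), AT5G39520 (0.726) and AT2G05540 (0.723), with AT1G13750 at 0.586. These correlations are descriptions over 24 arrays that share groups and processing, and the first 3 loci given for each gene were picked as the highest among all named loci, which selects for high values.

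The authors' deposited table gives the same differences for the 4 genes, and its F test over the 4 Pi effects of a gene has a p of 0.127 for PAP22, 0.328 for PAP23, 0.522 for PAP26 and 0.920 for RNS2. In the authors' deposited table, which is adjusted over all 22810 probe sets, controls included, the adjusted p of PAP22 at 24 h is 0.450 and that of PAP20 is 0.0221. Its log2 differences matched those of the fit without a block to within 5e-07.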

How the data were processed

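The series holds 24 arrays of root RNA. The log2 value of each probe set on each array was deposited by the authors. The summary of probes and the normalization are not given in the sources used here. The submitters' processing notes name limma. The authors' deposited comparison table holds log2 differences, p-values and, as a score, F and t statistics per the file headers. Refitting over all 22810 probe sets, controls included, matched its differences to within 5e-07 and its p-values, which proved to be already adjusted, to within 5.47e-08, so they were taken as given and not adjusted again as planned.

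For the values reported here the 64 control probe sets were left out, leaving 22746. Of these 17103 named 1 locus (9395 by the deposited column, 7708 by the platform annotation), 672 several and 4971 none. No genome build is named in the files and no coordinates are given. The genes and lists were chosen with earlier results of these data known. Genes outside the set were named where called, where a count was 5 or fewer, or, for likeness, as the 3 highest correlations per gene. PAP21 and the further correlations printed were chosen after their values were seen.

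With limma 3.58.1 (R 4.3.3, statmod 1.5.0) a mean for each of 8 groups was fitted to all 24 arrays (16 residual degrees of freedom) with empirical Bayes moderation, and 15 contrasts were adjusted by Benjamini-Hochberg at 0.05. The code was tested on simulated data. The number of arrays limits the precision. The 3 experiment numbers mark runs of the whole experiment in the labels and so pair the arrays. Deviations from the group averages had a mean r of 0.554 within an experiment, and within an experiment at one time r lay between 0.228 and 0.836. Between experiments the mean r was -0.286. Deviations from an average of 3 arrays cancel out, so a negative value there was fixed in advance. The experiment was added as a fixed block (14 residual degrees of freedom) or a random block (correlation 0.384). Other alternatives were median centring, a filter on dim probe sets, the deposited table, other moderation settings, and leaving out experiments, single arrays or arrays with irregular numbering. The fits that join the block with left-out arrays were added after seeing the data. The number of unused per-sample columns was 0, and 0 arrays were identical.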

Additional observations from a re-analysis of the deposited data

Results flagged for a closer look

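The Pi effect of 4 genes differed between times by the test of that difference, each only with the experiment as a fixed block and none without it. The genes looked at were the 4 of the set, the 9 other purple acid phosphatases and the 3 other Pi release genes. With the block 3 of the 9 were called for 24 h against 0 h (1.93% of all probe sets) and for 24 h against 6 h (3.23%). For 6 h against 1 h 1 of the 3 was called, against 9.05% of all probe sets. Each SE in this paragraph is from the fit without the block. For AT1G13750 the Pi effect at 24 h exceeded that at 0 h by 0.76 ± 0.21 (SE, limma adjusted p = 0.303, and 0.0361 with the block). It exceeded that at 6 h by 0.84 ± 0.21 (limma adjusted p = 0.099, and 0.0185 with the block). For PAP20 the effect at 24 h exceeded that at 0 h by 0.44 ± 0.145 (limma adjusted p = 0.446, and 0.0474 with the block). The excess over 6 h was 0.52 ± 0.145 (limma adjusted p = 0.146, and 0.0185 with the block). For PAP29 the effect at 24 h exceeded that at 0 h by 0.86 ± 0.42 (limma adjusted p = 0.669, and 0.0188 with the block), and that at 6 h by 0.79 ± 0.42 (limma adjusted p = 0.607, and 0.0231 with the block). For AT1G14220 the effect at 6 h less that at 1 h was -1.30 ± 0.66 (limma adjusted p = 0.392, and 0.0385 with the block). Each of these blocked calls was lost in some fits with an array or an experiment left out. For PAP20 at 24 h against 0 h some of these arrays were of other times. An example is the plus Pi 1 h array of experiment 1 (limma adjusted p = 0.0583). Over the fits with data left out, the log2 difference of PAP20 there lay between 0.33 and 0.5. Of the 24 arrays left out in turn, the call was lost for AT1G13750 without 10 (24 h against 0 h) and 2 (24 h against 6 h), for PAP20 without 19 and 1, for PAP29 without 3 and 6, and for AT1G14220 without 8. The highest adjusted p without 1 array was 0.109 and 0.0619 for AT1G13750, 0.129 and 0.052 for PAP20, 0.0687 and 0.0662 for PAP29, and 0.111 for AT1G14220. Without a whole experiment all of these calls were lost in each of the 3 cases, except that of PAP29 at 24 h against 6 h, which was kept without 1 experiment and lost without the others. The highest adjusted p without an experiment was 0.413 and 0.217 for AT1G13750, 0.36 and 0.25 for PAP20, 0.312 and 0.337 for PAP29, and 0.281 for AT1G14220.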

How the results depend on the processing

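With the experiment number as a replicate block, the count of called genes among PAP22, PAP23, PAP26 and RNS2 became 1 (PAP22) in place of 0 for the Pi effect at 24 h and for minus Pi roots at 24 h against 0 h. It was also 1 in the second of these with a random block, and with the fixed block when the 3 arrays with irregular numbers were left out. It was 1 in both with the fixed block without the 2 arrays whose names end in _2. The block changed no other call of the 4. Leaving out experiments or arrays gave counts of 0 to 1 for the Pi effect at 6 h, at 24 h and for minus Pi roots at 24 h against 0 h. The Pi effect of RNS2 changed sign after median centring at 0 h (0.0080) and 1 h (0.0542), and at 1 h without the irregularly numbered arrays (0.0804, and 0.0548 with the block). Leaving out experiments or arrays moved small effects across 0: PAP22 at 6 h ranged from -0.00294 to 0.77, PAP23 at 6 h from -0.26 to 0.00784, and RNS2 from -0.14 to 0.12 at 0 h, -0.13 to 0.0805 at 1 h and -0.13 to 0.0551 at 6 h. The cause was not tested. PAP23 fell under the filter on dim probe sets and has no value there. Each gene had 1 probe set, so taking all of a gene's probe sets altered nothing.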
